A study of Mus musculus with 19 samples.

Results

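The transcription factors that set and hold T lineage identity were examined in a mouse series of leukemias driven by FLT3-ITD, a constitutively active form of the cytokine receptor FLT3 that carries a tandem duplication, in cells with or without Dnmt3a, which encodes an enzyme that sets new DNA methylation. They are 8 genes, Tcf7, Lef1, Bcl11b, Satb1, Gata3, Ets1, Ikzf1 and Tox, taken by name from a table of 23458 genes, and all 8 passed the low-count filter that kept 15508 genes. Polyadenylated RNA of C57BL/6 mice was sequenced in 17 libraries that fall into 7 groups by genotype. The labels do not say which animal each replicate came from, so a p-value here reflects only how the libraries spread.

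In the retroviral model, donor marrow cells carrying Mx1-cre, a Cre recombinase under an interferon-inducible promoter, were transduced with a murine stem cell virus (MSCV), transplanted into lethally irradiated recipients, and donor-derived cells positive for CD4 and CD8 were sorted. KO-ITD denotes 4 leukemias with both Dnmt3a alleles floxed (f/f) and MSCV_FLT3-ITD-GFP, where replicates 1 and 2 came from marrow and 3 and 4 from thymus. WT-ITD denotes 3 leukemias with Dnmt3a+/+ and MSCV_FLT3-ITD-GFP, where replicates 1 and 3 came from thymus and 2 from marrow. KO-GFP denotes 2 thymus samples with floxed Dnmt3a and MSCV_GFP, which carries the fluorescent reporter alone, and WT-GFP denotes 2 thymus samples with Dnmt3a+/+ and MSCV_GFP. The knock-in mice carry the duplication in 1 allele of their own Flt3 gene (Flt3+/ITD), ER-cre is a Cre fused to an estrogen receptor, and whole marrow was used without a sort. They comprise 1 leukemia with ER-cre and Dnmt3a f/f, 2 leukemias with ER-cre and Dnmt3a f/+, and 3 pre-leukemic marrows with Dnmt3a f/f but no Cre. Sex and age are not in the labels. The donor marrow of every KO-ITD sample had been enriched by Sca-1 and that of both KO-GFP samples by ckit, while WT-ITD replicate 1 came from Sca-1-enriched, replicate 2 from ckit-enriched and replicate 3 from whole marrow, so that virus and enrichment cannot be told apart in the comparison of KO-ITD with KO-GFP. KO-ITD replicates 3 and 4 were processed by the submitters with a later Cuffdiff version (2.2.1), as were all knock-in samples, against 2.1.1 for the other 9 libraries.

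Tcf7 (TCF-1) and its relative Lef1 bind DNA through a high-mobility-group domain and act in early T cell specification and in the CD4+CD8+ stage. Bcl11b and Gata3 commit progenitors to the T lineage, Satb1 organises chromatin loops in thymocytes, Ets1 and Ikzf1 (Ikaros) act across lymphoid development, and Tox is needed for the CD4 lineage. In mm9, Tcf7 lies at chr11:52066106-52095752 and Ikzf1 at chr11:11586216-11672929, Lef1 at chr3:130813215-130927275, Bcl11b at chr12:109148613-109241624, Satb1 at chr17:51875512-51972615, Gata3 at chr2:9778705-9800227, Ets1 at chr9:32503627-32565405 and Tox at chr4:6614533-6917870. No other gene model overlaps their exons. Levels are in CPM, that is, estimated fragment counts scaled by library size with a trimmed-mean (TMM) correction; a gene was called where the Benjamini-Hochberg adjusted p of edgeR's quasi-likelihood test over all genes was below 0.05.

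Satb1, on chromosome 17, was the member with the largest called decrease in sorted leukemic cells, and its deposited transcripts differ in where they start. The gene models (mm9) hold 4 Satb1 transcripts, which share 1 coding sequence of 2292 bases and start at positions 51972615, 51971972, 51965913 and 51951379 on the minus strand. The 250 bases before each start are shown because 1 of these transcripts passed the test of transcript usage; they are given 5′ to 3′ in the direction of the gene, from RefSeq on GRCm38.p6 and matched by the spacing of the starts, with each CG dinucleotide in capitals.
NM_001163632: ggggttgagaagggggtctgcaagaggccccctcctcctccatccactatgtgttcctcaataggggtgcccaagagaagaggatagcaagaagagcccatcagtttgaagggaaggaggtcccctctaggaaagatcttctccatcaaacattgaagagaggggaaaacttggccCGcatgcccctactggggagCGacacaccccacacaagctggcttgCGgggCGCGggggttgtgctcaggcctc
NM_009122: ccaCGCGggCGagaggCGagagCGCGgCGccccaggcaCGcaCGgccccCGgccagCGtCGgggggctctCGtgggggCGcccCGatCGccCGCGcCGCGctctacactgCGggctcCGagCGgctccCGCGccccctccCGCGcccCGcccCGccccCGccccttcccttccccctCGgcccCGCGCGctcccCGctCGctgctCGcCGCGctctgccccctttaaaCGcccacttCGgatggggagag
NM_001163631: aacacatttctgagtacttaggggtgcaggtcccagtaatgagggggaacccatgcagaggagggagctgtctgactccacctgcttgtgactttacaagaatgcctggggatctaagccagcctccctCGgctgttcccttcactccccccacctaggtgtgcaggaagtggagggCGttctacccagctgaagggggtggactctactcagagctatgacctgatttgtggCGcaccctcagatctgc
NM_001163630: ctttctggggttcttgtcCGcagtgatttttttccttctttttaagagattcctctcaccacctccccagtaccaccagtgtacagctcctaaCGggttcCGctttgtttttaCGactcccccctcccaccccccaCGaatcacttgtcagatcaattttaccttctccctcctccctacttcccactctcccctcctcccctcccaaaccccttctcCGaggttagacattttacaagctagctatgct

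These windows lie at chr17:51833291-51833540, chr17:51832648-51832897, chr17:51826589-51826838 and chr17:51812055-51812304 of GRCm38.p6. The window before NM_009122 holds 41 CG dinucleotides, and 98.9% of 32851 promoter windows of the same length hold fewer. The window before NM_001163631 holds 3, that before NM_001163632 holds 5 and that before NM_001163630 holds 6, with 29%, 44.4% and 49.6% of windows below them. The motifs searched on both strands were CTTTGA for TCF and LEF factors (in 13.8% of all windows), AGATAA for GATA factors (9.99%), TGTGGT for RUNX factors (14%), ACCGGAAG for ETS factors (1.72%) and CAGCTG, an E-box; none is contained in another. Only the E-box letters were found, in the NM_001163631 window, and 13% of all promoter windows hold them; this describes the letters and not a bound site.

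In cells with floxed Dnmt3a, FLT3-ITD leukemias had lower levels of 5 of the 8 factors, Satb1, Bcl11b, Tcf7, Ets1 and Ikzf1, than thymocytes carrying GFP alone, and none was higher. Over all genes, 9.85% were called lower in KO-ITD than KO-GFP and 9.8% higher. The median log2 fold change of the 8 factors was -1.30, against 0.19 for all genes tested. Satb1 stood at 299, 505, 483 and 346 CPM in KO-ITD cells, against 3334 and 2488 CPM in KO-GFP cells. Every leukemia was far below both GFP libraries, and the fitted level was 7.13-fold lower (log2 fold change -2.83 ± 0.41 SE, adjusted p = 0.00169 by edgeR). Satb1 was called under all 13 alternative settings, with log2 fold changes between -3.03 and -2.61.

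Bcl11b, a zinc finger factor without which cells do not complete T commitment, measured 189.5, 355, 156 and 184 CPM in KO-ITD cells, against 848 and 751 CPM in KO-GFP cells. Replicate 2 was the highest leukemia and still far below either GFP level, and the groups differed 3.61-fold (log2 fold change -1.85 ± 0.55 SE, adjusted p = 0.0331 by edgeR). Tcf7 measured 1413, 983, 714 and 371 CPM in KO-ITD cells, against 2382 and 2180 CPM in KO-GFP cells. The leukemias spread widely among themselves without reaching the GFP range, and the fitted level was 2.62-fold lower (log2 fold change -1.39 ± 0.38 SE, adjusted p = 0.0249 by edgeR). Ets1 measured 691, 836, 764 and 386 CPM in KO-ITD cells, against 1804 and 1577 CPM in KO-GFP cells. It fell 2.53-fold with no overlap of the groups (log2 fold change -1.34 ± 0.34 SE, adjusted p = 0.0185 by edgeR).

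Ikzf1 measured 463, 486, 874 and 471 CPM in KO-ITD cells, against 1092 and 915 CPM in KO-GFP cells. Replicate 3 stood close to the GFP libraries and the other leukemias near one another, and the called difference was 1.75-fold (log2 fold change -0.81 ± 0.27 SE, adjusted p = 0.0485 by edgeR). Without replicate 3 the Ikzf1 difference was larger (log2 fold change -1.08, adjusted p = 0.00762 by edgeR), and without any other single library it lost its call. Bcl11b lost its call without each library except KO-ITD replicate 2, and Tcf7 also without KO-ITD replicate 3 (adjusted p = 0.0509 by edgeR). Leaving out KO-GFP replicate 1 or replicate 2 left Satb1 alone called; without KO-ITD replicate 1, 3 or 4 the number called was 3, and without replicate 2 it was 4.

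Lef1, Gata3 and Tox did not pass the test in these cells. Lef1 measured 285, 442, 180.3 and 485 CPM in KO-ITD cells, against 317 and 337 CPM in KO-GFP cells, so that the leukemias lay on both sides of the GFP values (log2 fold change 0.09 ± 0.44 SE, adjusted p = 0.90 by edgeR). This direction turned with KO-ITD replicate 2 or 4 left out. Tox measured 43.8, 54.3, 102 and 55.7 CPM in KO-ITD cells, against 153 and 153 CPM in KO-GFP cells. These groups did not overlap, but the difference missed the threshold (log2 fold change -1.26 ± 0.72 SE, adjusted p = 0.209 by edgeR). This standard error draws on the spread of all 17 libraries and not of these groups alone. The share of all genes without overlap between these groups was not counted. Gata3 measured 48, 40, 94.9 and 41.4 CPM in KO-ITD cells, against 88 and 96.3 CPM in KO-GFP cells, with replicate 3 inside the GFP range (log2 fold change -0.72 ± 0.84 SE, adjusted p = 0.544 by edgeR). With the Cuffdiff 2.1.1 libraries alone, which leaves KO-ITD replicates 1 and 2, Gata3 and Tox were also called lower (adjusted p = 0.0132 and adjusted p = 0.0136 by edgeR) and 7 of the 8 factors were called. With thymus libraries alone, which leaves KO-ITD replicates 3 and 4, 4 were called and Ikzf1 was not (adjusted p = 0.206 by edgeR).

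**Figure D1:**
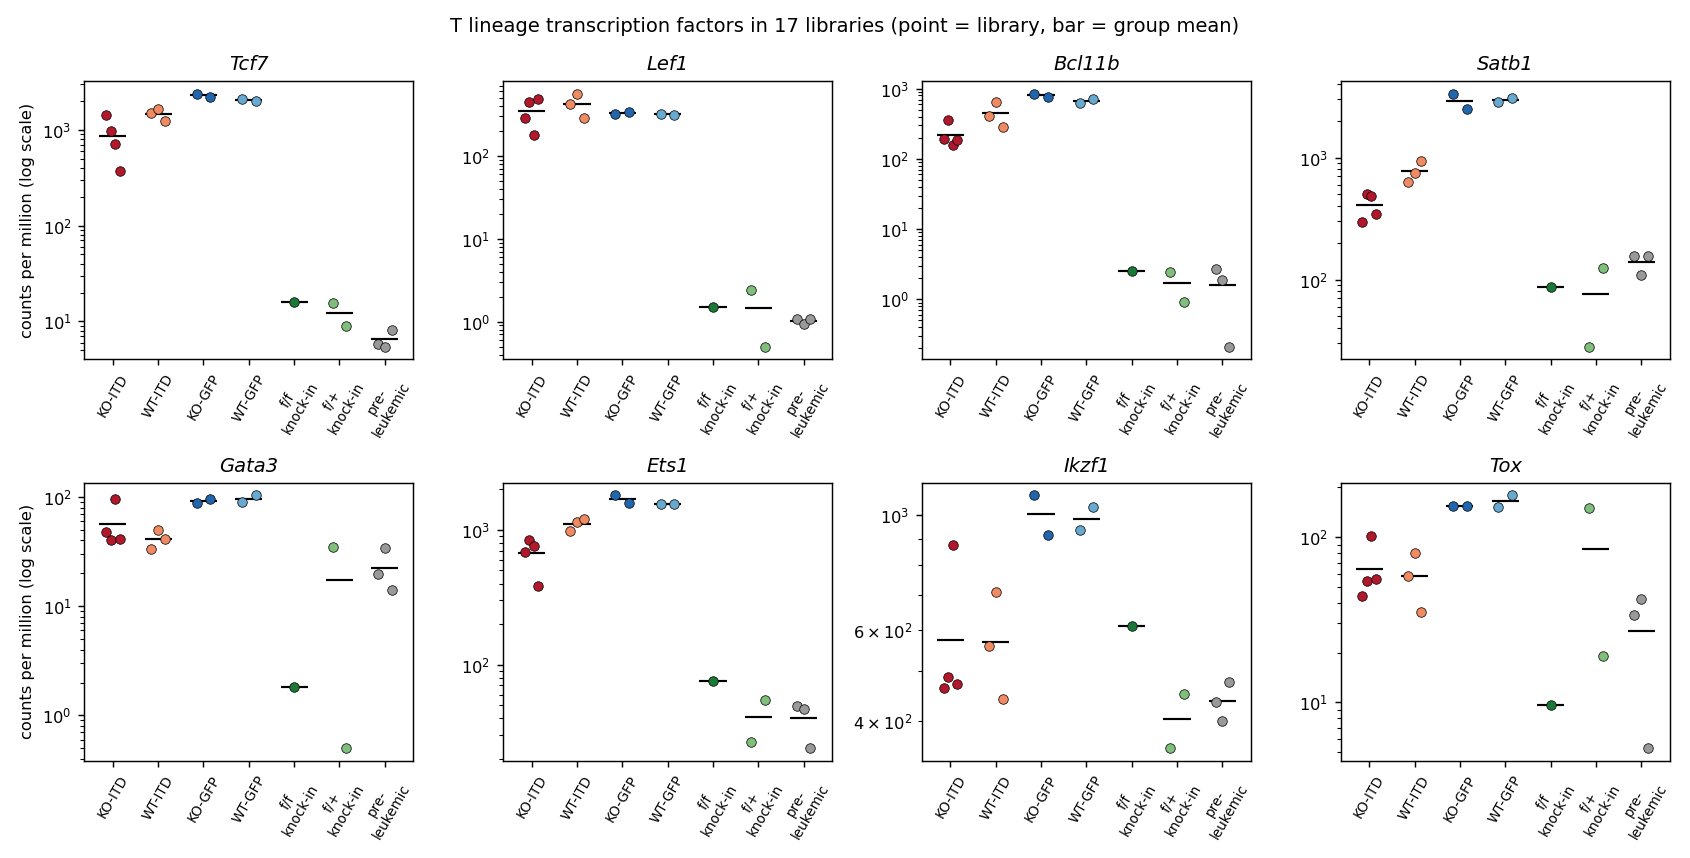
CPM (log axis) of the 8 factors by group, with a point for each of the 17 libraries and a bar for the group mean. Satb1 lies between 299 and 944 CPM in the 7 retroviral leukemias, against 2488 to 3334 CPM in the 4 GFP libraries, while Lef1 overlaps between them.

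T cell identity genes as a sum were also lower in KO-ITD cells. Sums of stromal, erythroid, granulocyte, monocyte and macrophage, and NK and cytotoxic markers were higher. Of single markers, 8 of 9 stromal, 6 of 9 erythroid and 1 of 12 granulocyte genes were called higher, beside 9.8% of all genes. Of the monocyte and macrophage, B cell and dendritic markers 0 were called. Of the NK and cytotoxic markers 1 was called higher and 1 lower. The 22 T cell identity genes summed to 6907 to 11310 CPM in KO-ITD cells, against 19170 to 21590 CPM in KO-GFP cells, with none of the 22 at 0 in any of these libraries. Stromal markers (9 genes) summed to 138 to 2817 CPM in KO-ITD cells, against 6.69 to 7.54 CPM in KO-GFP cells. Erythroid markers (9 genes) summed to 447 to 1441 CPM, against 14 to 137 CPM in KO-GFP cells, and granulocyte markers (12 genes) to 137 to 1097 CPM, against 13 to 60.7 CPM. Monocyte and macrophage markers (11 genes) summed to 154 to 3174 CPM in KO-ITD cells, against 73.5 to 87.2 CPM in KO-GFP cells. NK and cytotoxic markers (9 genes) summed to 337 to 3222 CPM, against 82.1 to 105.7 CPM. Sums of B cell, dendritic and proliferation markers overlapped between these groups. In bulk RNA a smaller share of T lineage cells and less RNA of a factor per cell cannot be told apart, and the part of these markers in the decreases was not tested. KO-ITD replicate 3, the highest in Gata3, Ikzf1 and Tox, was also the highest in the sum of the 9 NK and cytotoxic markers. That sum was 3222 CPM, against 337 to 1488 CPM in the other KO-ITD libraries. The genes of this list did not move together. Their median log2 fold change for KO-ITD over KO-GFP was -1.02, against 0.19 for all genes, and Ncr1 had 0 counts in replicate 3. KO-ITD replicate 4, the lowest in Tcf7 and Ets1, was the highest in stromal markers (2817 CPM) and in the 11 monocyte and macrophage markers (3174 CPM, against 154 to 241 CPM in the other KO-ITD libraries) and the lowest in the 10 proliferation genes (624 CPM, against 2184 to 3605 CPM).

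In cells with intact Dnmt3a, Satb1 was the 1 factor of the 8 that passed the test, where 0.89% of all genes were called lower in WT-ITD than WT-GFP and 1.35% higher. Satb1 measured 630.3, 752 and 944 CPM in WT-ITD cells, against 2827 and 3070 CPM in WT-GFP cells. All 3 leukemias were far below either GFP value, and the fitted level was 3.80-fold lower (log2 fold change -1.93 ± 0.45 SE, adjusted p = 0.0439 by edgeR). The call did not survive the removal of any 1 of the 5 libraries (adjusted p between 0.0507 and 0.293), while the log2 fold change stayed between -2.06 and -1.87.

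None of the other factors passed the test with intact Dnmt3a. The number of factors with an unadjusted p below 0.05 by edgeR was 2, Satb1 and Ikzf1, beside 2749 of 15508 genes. Ikzf1 measured 558, 710 and 442 CPM in WT-ITD cells, against 934 and 1035 CPM in WT-GFP cells (log2 fold change -0.79 ± 0.28 SE, adjusted p = 0.169 by edgeR). Tox measured 58.2, 80.3 and 35.3 CPM in WT-ITD cells, against 151 and 178 CPM in WT-GFP cells (log2 fold change -1.51 ± 0.77 SE, adjusted p = 0.332 by edgeR). Gata3 measured 33.6, 50 and 41.3 CPM in WT-ITD cells, against 89.8 and 103.5 CPM in WT-GFP cells (log2 fold change -1.22 ± 0.90 SE, adjusted p = 0.514 by edgeR). In each of these genes every leukemia lay below both GFP libraries. The share of all genes that separate between groups in this way was not counted, so non-overlap is described without a background. Ets1 ranged from 975 to 1210 CPM in WT-ITD cells, against 1549 and 1564 CPM in WT-GFP cells, and Tcf7 from 1226 to 1637 CPM, against 2108 and 1976 CPM, again without overlap and without a call. Bcl11b (406, 638 and 286 CPM, against 616 and 712 CPM in WT-GFP cells) and Lef1 (419, 562 and 289 CPM, against 323 and 311 CPM in WT-GFP cells) overlapped between the groups. With the Cuffdiff 2.1.1 libraries alone, which hold all of these samples but fewer of the other groups, Gata3 and Tox were also called lower (adjusted p = 0.0103 and adjusted p = 0.0219 by edgeR). Fitted with WT-ITD and WT-GFP only, Gata3 was called (log2 fold change -1.16 ± 0.20 SE, adjusted p = 0.0359 by edgeR) and Tox was not. The standard errors of the main fit draw on the spread of all 17 libraries. T cell identity genes summed to 11440 to 15280 CPM in WT-ITD cells, against 19860 to 21180 CPM in WT-GFP cells. Stromal markers summed to 3.98 to 134 CPM, against 7.44 to 9.08 CPM. WT-ITD replicate 2, with 752 CPM of Satb1, lay below both GFP libraries in stromal markers. Its T cell identity genes did too, at 13090 CPM. The part of either in the level of Satb1 was not tested.

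Dnmt3a itself measured 65.8, 127, 68.1 and 53 CPM in KO-ITD cells, against 180.2, 238 and 183 CPM in WT-ITD cells, and 207 and 144 CPM in KO-GFP cells, against 257 and 250.1 CPM in WT-GFP cells. It measured 36.5 CPM in the f/f knock-in leukemia and 55 and 47.4 CPM in the f/+ leukemias, against 130 to 153.5 CPM in pre-leukemic marrow. These counts cover the whole gene, so they do not measure how many cells had lost the floxed part.

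None of the 8 factors passed the test for Dnmt3a deletion among the retroviral leukemias, where 0.49% of all genes did (0.206% higher, 0.284% lower), and DESeq2 called 0 factors too. The number with an unadjusted p below 0.05 was 2, beside 3144 of 15508 genes. Satb1 was 1.90-fold lower in KO-ITD than WT-ITD (log2 fold change -0.93 ± 0.38 SE, adjusted p = 0.204 by edgeR), and its 4 KO-ITD values all lay below its 3 WT-ITD values. Ets1 was 1.66-fold lower (log2 fold change -0.73 ± 0.31 SE, adjusted p = 0.215 by edgeR), also without overlap. The share of all genes that separate KO-ITD from WT-ITD in this way was not counted. For Bcl11b the log2 fold change was -1.0 ± 0.50 SE (adjusted p = 0.275 by edgeR) and for Tcf7 -0.74 ± 0.35 SE (adjusted p = 0.25 by edgeR), with overlapping groups. Ikzf1 (0.01 ± 0.24 SE) and Tox (0.14 ± 0.66 SE) turned to lower in KO-ITD without its replicate 3, without WT-ITD replicate 3, or with the Cuffdiff 2.1.1 libraries alone. Lef1 (-0.28 ± 0.38 SE) and Gata3 (0.43 ± 0.77 SE) did not pass either.

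Without FLT3-ITD, Dnmt3a deletion gave no called factor, and 0% of all genes were called; 0 of the 8 factors and 74 of all genes had an unadjusted p below 0.05, and DESeq2 called no factor either. The log2 fold changes of KO-GFP over WT-GFP lay between -0.11 for Tox and 0.27 for Bcl11b, with standard errors between 0.31 for Ikzf1 and 0.996 for Gata3. These standard errors draw on the spread of all 17 libraries, knock-in marrows included, and not on the GFP libraries alone. Fitted with these groups only, Satb1 had a standard error of 0.16, against 0.49 in the fit of all libraries. The absence of calls therefore does not show that the deletion left these genes unchanged. The test of whether the FLT3-ITD effect differed with Dnmt3a status called 0 factors, 0 with an unadjusted p below 0.05 and 0 by DESeq2, against 0% of all genes. Its largest estimates were -1.27 ± 0.83 SE for Bcl11b, -0.91 ± 0.62 SE for Satb1, -0.90 ± 0.57 SE for Tcf7 and -0.85 ± 0.51 SE for Ets1 (adjusted p = 0.819 to 0.82 by edgeR). The 5 calls with floxed Dnmt3a and the 1 call with intact Dnmt3a are therefore not shown to differ.

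**Figure D2:**
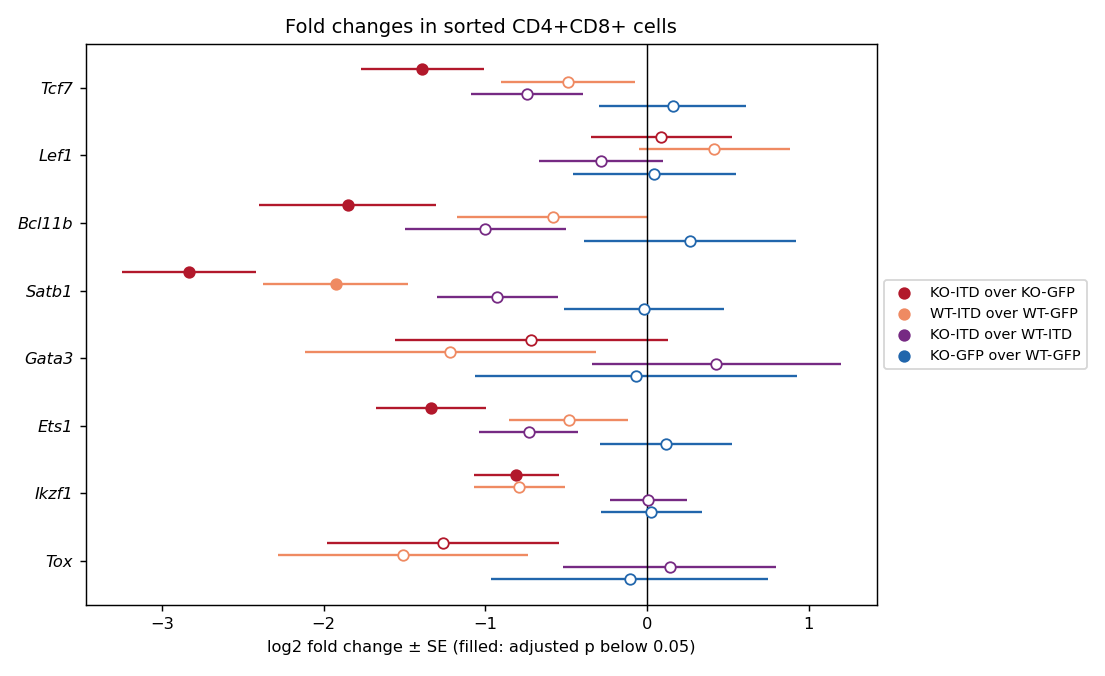
Log2 fold change with its standard error for each factor in the comparisons within the retroviral model, filled where the adjusted p was below 0.05. KO-ITD over KO-GFP has 5 filled points, all below 0, WT-ITD over WT-GFP has 1, Satb1, and the comparisons by Dnmt3a status have 0.

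Among 20 other regulators of the T lineage, 6 fell and 2 rose in KO-ITD against KO-GFP, and the others did not pass. Over all genes, 9.85% were called lower and 9.8% higher. Egr1, an immediate early gene downstream of the T cell receptor, averaged 8.38 ± 11.1 CPM in KO-ITD cells and 119 ± 2.37 CPM in KO-GFP cells (SD, n = 4 and 2; log2 fold change -3.84 ± 0.92 SE, adjusted p = 0.0143 by edgeR). Id3, an inhibitor of E proteins, also fell (log2 fold change -2.94 ± 0.77 SE, adjusted p = 0.0209 by edgeR). The 2 that rose, named here after their values were seen, were Notch1, the receptor that starts T commitment (log2 fold change 2.30 ± 0.68 SE, adjusted p = 0.0332 by edgeR), and Id2, another E protein inhibitor (1.79 ± 0.45 SE, adjusted p = 0.0175 by edgeR). With intact Dnmt3a, 2 of the 20 fell and 0 rose, beside 0.89% of all genes called lower and 1.35% higher. The 2 were Egr1 (-4.61 ± 1.04 SE, adjusted p = 0.0391 by edgeR) and Nfatc3 (-1.41 ± 0.28 SE, adjusted p = 0.02 by edgeR), a factor activated by calcium and calcineurin. Notch1 and Id2 were higher there too, without a call. Notch1 averaged 2154 ± 1068 CPM in WT-ITD cells, against 305 CPM in WT-GFP cells, and Id2 132 ± 52 CPM, against 39.6 CPM (SD). The interaction test called 0 of the 20.

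The 15 paralogs of the 8 factors went both ways in KO-ITD against KO-GFP, where 3 fell and 2 rose. Over all genes, 9.85% were called lower and 9.8% higher. Ets2 (log2 fold change -2.54 ± 0.46 SE, adjusted p = 0.00511 by edgeR) and the Ikaros family members Ikzf2 (-3.14 ± 0.76 SE, adjusted p = 0.0152) and Ikzf3 (-2.0 ± 0.55 SE, adjusted p = 0.0246) fell. Gata1 (4.66 ± 1.26 SE, adjusted p = 0.0237 by edgeR) and Gata2 (5.34 ± 1.77 SE, adjusted p = 0.0498), which act in erythroid and myeloid cells, rose to 21.4 ± 18.9 CPM and 4.95 ± 4.83 CPM in KO-ITD cells, against 0.831 ± 0.543 CPM and 0.108 ± 0.062 CPM in KO-GFP cells (SD). Of 15 measured partners and feedback genes of TCF and LEF factors, Bcl9, which links beta-catenin to its coactivators, fell (-1.51 ± 0.32 SE, adjusted p = 0.00943 by edgeR) and 14 did not pass. Without KO-GFP replicate 1, the calls of Egr1, Id3, Notch1, Id2, Ets2, Ikzf2, Ikzf3, Gata1, Gata2 and Bcl9 were all lost. With intact Dnmt3a, 1 of the 15 paralogs fell and 0 rose, beside 0.89% of all genes called lower and 1.35% higher. Ets2, Ikzf2 and Ikzf3, uncalled there, averaged 309, 21.1 and 155 CPM in WT-ITD cells, against 690, 141 and 363.5 CPM in WT-GFP cells. Gata1 and Gata2, also uncalled, averaged 10.6 and 0.976 CPM, against 1.125 and 0.14 CPM. The interaction test called 0 of the 15.

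Of the 22 T cell identity genes, 10 fell and 1 rose in KO-ITD against KO-GFP, beside 9.85% of all genes called lower and 9.8% higher. The largest decreases were of Cd5, an inhibitor of T cell receptor signals (5.88 ± 3.04 CPM in KO-ITD cells and 223 ± 19.3 CPM in KO-GFP cells, SD), of its relative Cd6 (10.9 ± 9.40 CPM in KO-ITD cells and 349 ± 8.05 CPM in KO-GFP cells) and of the thymic chemokine receptor Ccr9 (40.3 ± 58.6 CPM in KO-ITD cells and 1248 ± 129 CPM in KO-GFP cells; adjusted p = 9.4e-05, adjusted p = 0.000708 and adjusted p = 0.00719 in that order by edgeR). Ptcra, which encodes the pre-T cell receptor alpha chain, was the 1 that rose, named after its value was seen (log2 fold change 3.03 ± 0.89 SE, adjusted p = 0.0377 by edgeR). The signalling component Cd3e, also chosen after its values were seen, averaged 329 ± 77.1 CPM in KO-ITD cells and 361 ± 35.1 CPM in KO-GFP cells. With intact Dnmt3a, Cd5 (log2 fold change -3.88 ± 0.52 SE, adjusted p = 0.00218 by edgeR) and Cd4 (-1.24 ± 0.29 SE, adjusted p = 0.0439), the coreceptor gene, fell and 20 did not pass. Over all genes, 0.89% were called lower and 1.35% higher in that comparison. Without KO-GFP replicate 1, Ccr9 and Ptcra lost their calls and Cd5 and Cd6 did not; with any 1 library left out of the comparison with intact Dnmt3a, Cd5 stayed called and Cd4 and Egr1 did not, nor did Nfatc3 except without WT-ITD replicate 3. Between KO-ITD and WT-ITD leukemias, Cd6 alone of the 22 was called, lower in KO-ITD (-3.15, adjusted p = 0.0293 by edgeR), and not without WT-ITD replicate 1 or replicate 2. The Cd6 call was also lost with the replicate block (adjusted p = 0.0829 by edgeR), with these groups only (adjusted p = 0.278) and with thymus libraries alone (adjusted p = 0.117). Between these leukemias 0.284% of all genes were called lower in KO-ITD and 0.206% higher.

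The transcripts of Satb1 did not fall equally. Transcript NM_001163631, which starts behind the CG-poor window with the E-box letters, measured 0.0091, 0, 12.1 and 0 CPM in KO-ITD cells and 0.0077, 4.12 and 48.2 CPM in WT-ITD cells, against 604 and 966 CPM in KO-GFP cells and 454.5 and 1276 CPM in WT-GFP cells. The highest leukemia was thus far below the lowest GFP library. As a share of all Satb1 counts it made up 0% to 5.11% in the 7 leukemias, against 18.1% and 38.8% in KO-GFP cells and 16.1% and 41.6% in WT-GFP cells. Satb1 passed the test of transcript usage between leukemias and GFP thymocytes (edgeR diffSpliceDGE, F = 6.6, adjusted p = 0.0473), as did 2.94% of 3198 genes with more than 1 tested transcript. Of the 4, NM_001163631 alone passed (log2 fold change against the gene's other transcripts -3.09, adjusted p = 0.0366 by edgeR).

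The usage result is close to its threshold. It was lost in 7 of the 11 fits that left out 1 library, in each without WT-GFP replicate 2, KO-GFP replicate 2, WT-ITD replicate 1 or 2, or KO-ITD replicate 1, 2 or 4, and with thymus libraries alone (adjusted p = 0.217 by edgeR). Transcript counts are estimates that divide reads among overlapping models, and they varied within a group: NM_009122, behind the CG-rich window, held 56.2% and 6.79% of Satb1 in KO-GFP replicates 1 and 2, and 60.5% and 8.91% in WT-GFP replicates 1 and 2. NM_001163630 held 13.5% and 50.9% in the KO-GFP libraries and 12.3% and 45.3% in the WT-GFP libraries, so the libraries of 1 number resembled each other across genotypes more than the libraries of 1 genotype did. Bcl11b, Lef1 and Ets1 showed the same split of GFP libraries by number. With the replicate number as a block, Satb1 passed the usage test (F = 17.9, adjusted p = 0.000505 by edgeR), as did 98 of 3198 genes. What the number stands for is not in the labels.

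**Figure D3:**
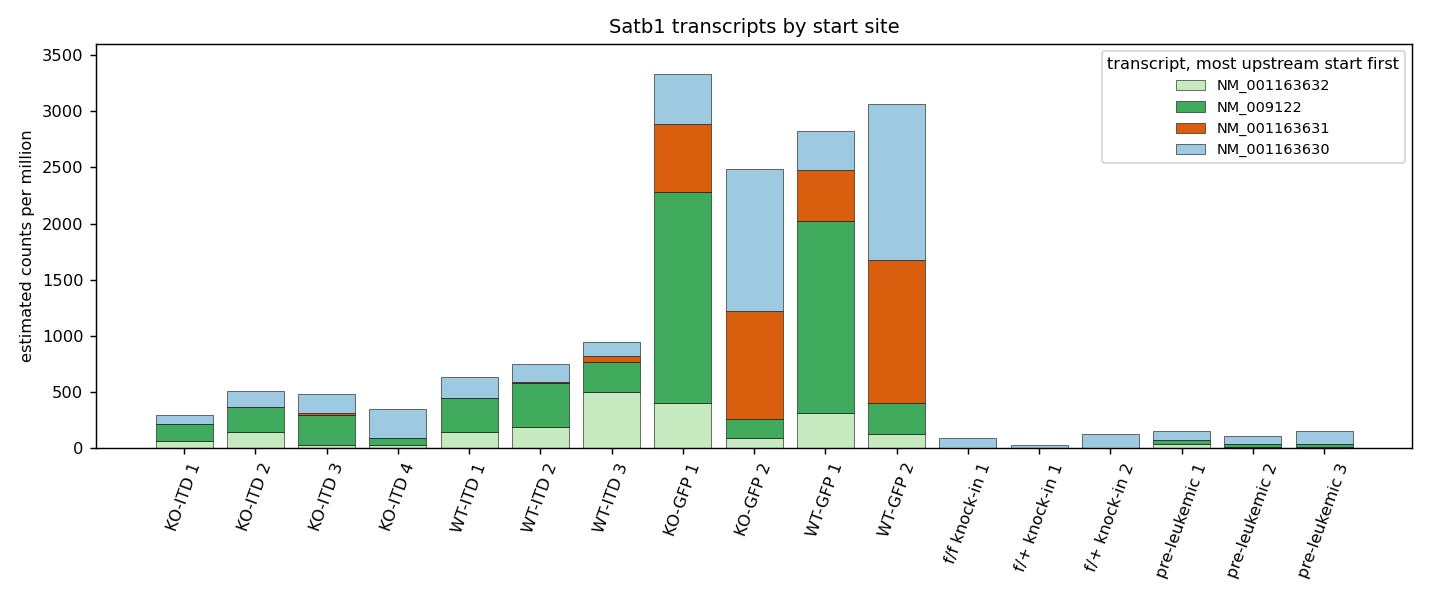
Estimated CPM of the 4 Satb1 transcripts in each library, stacked, with the most upstream start at the bottom and NM_001163631 in orange. NM_001163631 reaches 454.5 to 1276 CPM in the 4 GFP libraries and at most 48.2 CPM in the other 13.

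The factors Ikzf1, Ets1, Lef1 and Bcl11b have transcripts that differ in coding sequence, and none passed the usage test. Ikzf1 transcript NM_009578 lacks exon 4 of the full-length transcript (chr11:11648314-11648574 of mm9, 261 bases, 87 codons). This is a coding exon, numbered among all exons, and it carries the first of the N-terminal zinc fingers of Ikaros. It made up 28.3%, 24.9%, 70.6% and 64.3% of Ikzf1 in KO-ITD cells and 42.7%, 34.6% and 15.7% in WT-ITD cells, against 24.1% and 16.8% in KO-GFP cells and 29% and 25.1% in WT-GFP cells (adjusted p = 0.243 by edgeR diffSpliceDGE). In KO-ITD replicate 3 it reached 617 CPM, against 131, 121 and 303 CPM in replicates 1, 2 and 4, while the full-length NM_001025597 stood at 257 CPM, against 332, 365 and 168 CPM. By these estimates the shorter transcript was the high one in that library and the full-length one was not.

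Ets1 transcript NM_001038642 lacks coding exon 6 (chr9:32545684-32545944 of mm9, 261 bases, 87 codons), which in human ETS1 holds part of the region that inhibits DNA binding. It made up 4.98%, 2.43%, 24.9% and 37.2% of Ets1 in KO-ITD cells, against 4.28% and 14.8% in KO-GFP cells (adjusted p = 0.998 by edgeR diffSpliceDGE over all leukemias). For both Ikzf1 and Ets1 the shorter transcript was high in KO-ITD replicates 3 and 4, which share the thymus and the later Cuffdiff version. The 6 other thymus libraries had 15.7% to 42.7% of the shorter Ikzf1 transcript and 4.28% to 14.8% of the shorter Ets1 transcript; the knock-in libraries, all made with the later version, had 26.3% to 66.1% and 0% to 38.6%. Within KO-ITD, tissue and version cannot be told apart. Lef1 transcript NM_001276403 starts at an internal site and lacks the 69 codons of the first coding exon, in the N-terminal region that binds beta-catenin. It held 45.4% to 72.5% of Lef1 in KO-ITD cells and 45.5% to 65.9% in WT-ITD cells, against 32.9% and 60.7% in KO-GFP cells and 41.3% and 59.1% in WT-GFP cells (adjusted p = 0.833 by edgeR diffSpliceDGE). Bcl11b transcript NM_001079883, with a coding exon of 72 codons that NM_021399 lacks, held 25.9% to 53.2% in KO-ITD cells, against 24.6% and 42.7% in KO-GFP cells (adjusted p = 0.86 by edgeR diffSpliceDGE).

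**Figure D4:**
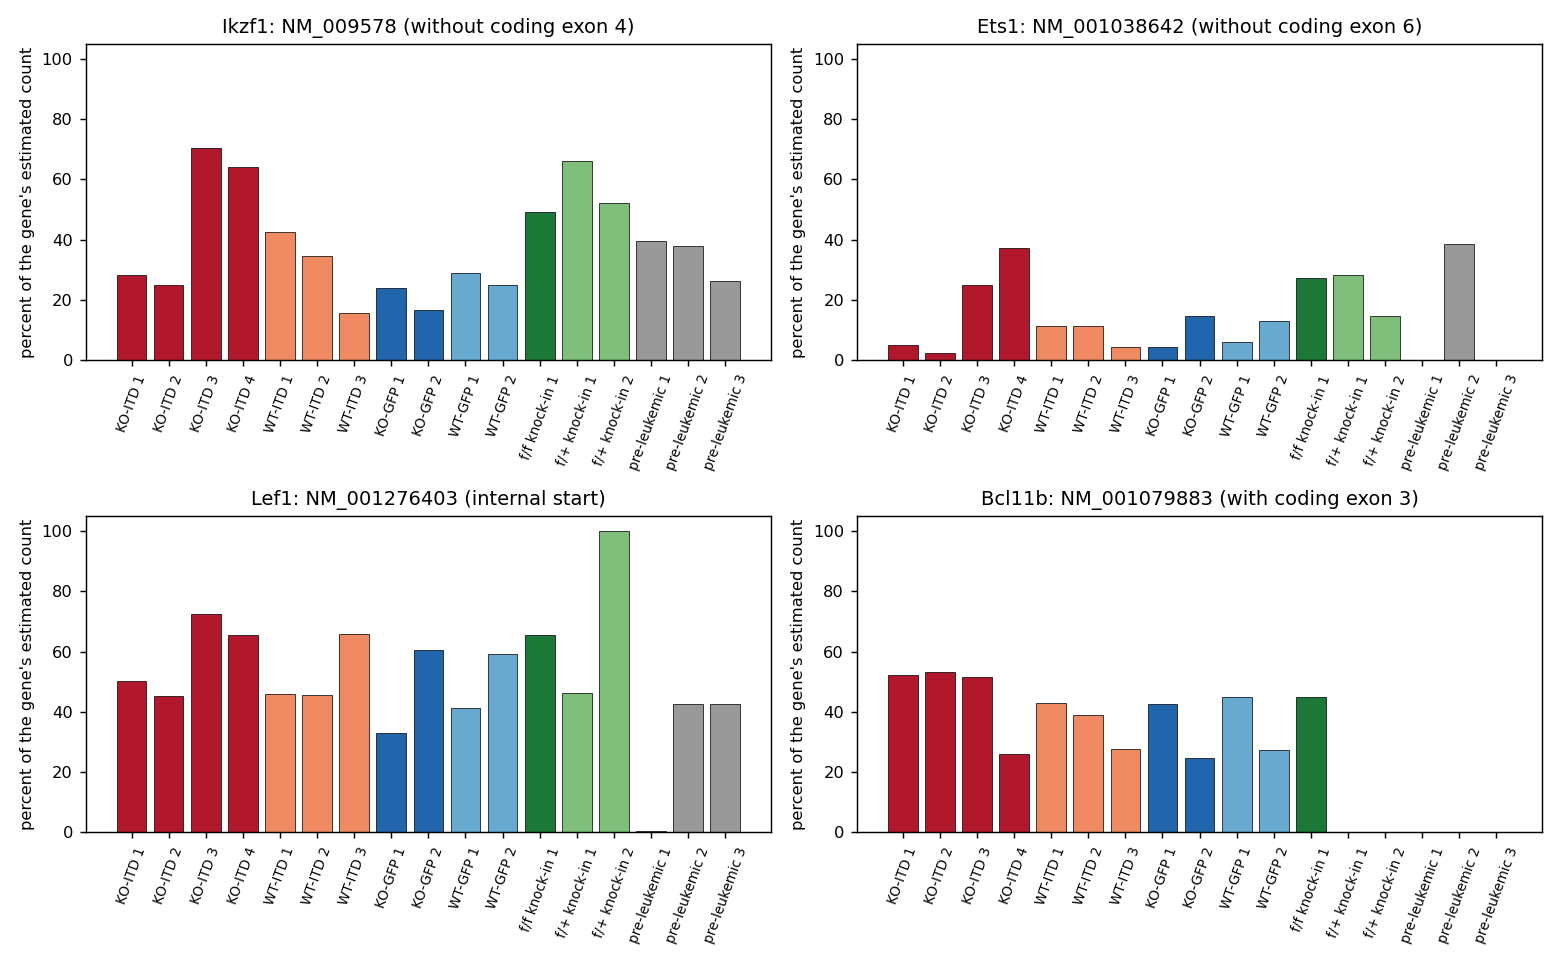
Share of each gene's estimated count in 1 transcript of Ikzf1, Ets1, Lef1 and Bcl11b, by library and coloured by group. The Ikzf1 transcript without exon 4 (numbered among all exons, and titled coding exon 4 in the panel) reaches 70.6% and 64.3% in KO-ITD replicates 3 and 4. In the other 9 retroviral libraries it holds 15.7% to 42.7%. Shares in knock-in marrow rest on few counts for Lef1 and Bcl11b.

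In unsorted marrow of the knock-in model, Lef1 and Bcl11b measured at most 2.67 CPM and Tcf7 at most 16.1 CPM, while Ikzf1 measured 354 to 612 CPM in the leukemias and 400 to 476 CPM in pre-leukemic marrow. Per kilobase of exon, Ikzf1 was the highest of the 8 factors in all 3 knock-in groups (118 CPM per kilobase in the f/f leukemia, 78.1 in f/+ leukemias and 84.7 in pre-leukemic marrow), whereas Tcf7 was the highest in the 4 retroviral groups (391 in KO-ITD, 654 in WT-ITD, 1026 in KO-GFP and 918 in WT-GFP). Lef1 had 28 counts in the f/f leukemia, 38 and 7 in the f/+ leukemias and 5 to 25 in pre-leukemic marrow. Bcl11b had 47 counts in the f/f leukemia, 38 and 13 in the f/+ leukemias and 5 to 15 in pre-leukemic marrow. No factor passed the test in f/+ leukemias against pre-leukemic marrow (0 with an unadjusted p below 0.05 and 0 by DESeq2), where 5% of all genes did (3.43% higher, 1.57% lower).

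The f/+ leukemias differed from each other in Gata3 and Tox. Gata3 measured 34.5 and 0.501 CPM in the f/+ leukemias, against 19.6, 33.9 and 14 CPM in pre-leukemic marrow. Tox measured 149 and 19 CPM, against 34, 42.2 and 5.28 CPM. Satb1 measured 28.3 and 123 CPM, against 155, 108 and 155.5 CPM, so the leukemia high in Gata3 and Tox was the low one in Satb1. Without replicate 1, Gata3 alone was called (log2 fold change -5.46, adjusted p = 0.00261 by edgeR), and without replicate 2, Satb1 alone (-2.30, adjusted p = 0.0207); each of these fits leaves 1 f/+ library, which is assumed to vary like the other groups. Replicate 1 summed to 424 CPM of T cell identity genes and 1575 CPM of 8 dendritic markers, against 125 and 339 CPM in replicate 2, and replicate 2 to 19990 CPM of granulocyte markers, against 3815 CPM in replicate 1; the part of these cells was not tested.

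The single f/f leukemia has no replicate, and its test assumes that it varies like the other groups. It gave 0 called factors, against 3.01% of all genes, with 2 at an unadjusted p below 0.05, beside 3243 of 15508 genes, and 1, Gata3, called by DESeq2 (adjusted p = 0.0243). Gata3 measured 1.82 CPM in it (log2 fold change -3.61 ± 1.5 SE against pre-leukemic marrow, adjusted p = 0.193 by edgeR) and Tcf7 16.1 CPM, against 5.87, 5.47 and 8.09 CPM in pre-leukemic marrow (1.29 ± 0.52 SE, adjusted p = 0.181). Fitted with these groups only, both were called, as were 3676 of 13541 genes. Tcf7 measured 15.7 and 8.94 CPM in the f/+ leukemias.

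The T cell receptor genes Cd3d and Cd3e were called where the factors were not. As a sum, T cell identity genes were above pre-leukemic marrow only in f/+ replicate 1. Cd3d measured 4.29 CPM in the f/f leukemia and 2.08 and 3.40 CPM in the f/+ leukemias, against 0 to 0.178 CPM in pre-leukemic marrow (adjusted p = 0.00676 for f/f and adjusted p = 0.0028 for f/+ by edgeR). Cd3e measured 5.52 CPM in the f/f leukemia and 1.29 and 3.14 CPM in the f/+ leukemias, against 0 to 0.377 CPM (adjusted p = 0.00699 for f/f and adjusted p = 0.0117 for f/+ by edgeR). Fitted with the f/+ and pre-leukemic groups only, both lost their f/+ calls (adjusted p = 0.0668 for Cd3d and adjusted p = 0.128 for Cd3e by edgeR). Of the 22 T cell identity genes 5 rose and 1, Cd27, fell in the f/f leukemia, and 6 rose and 0 fell in the f/+ leukemias. Over all genes, 2.11% were called higher and 0.903% lower in the f/f leukemia, and 3.43% higher and 1.57% lower in the f/+ leukemias. Both comparisons use the same pre-leukemic libraries. The 22 genes summed to 111.5 CPM in the f/f leukemia and to 424 and 125 CPM in f/+ replicates 1 and 2. In pre-leukemic marrow they summed to 239 to 260 CPM. In sorted KO-ITD cells Cd3e lay between 262 and 431 CPM.

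Set against the knock-in leukemias, the retroviral leukemias had more of 6 factors, where 15% of all genes were called higher and 32.1% in either direction. Lef1 was 255.5-fold higher (log2 fold change 8.0 ± 0.65 SE, adjusted p = 6.09e-06 by edgeR), Bcl11b 151-fold (7.24 ± 0.81 SE, adjusted p = 4.37e-05) and Tcf7 79.95-fold (6.32 ± 0.53 SE, adjusted p = 7.14e-06). Ets1 was 15.6-fold higher (3.97 ± 0.40 SE, adjusted p = 2.24e-05 by edgeR), Gata3 8.52-fold (3.09 ± 0.92 SE, adjusted p = 0.0213) and Satb1 6.9-fold (2.79 ± 0.44 SE, adjusted p = 0.000524). Ikzf1 measured 442 to 874 CPM in retroviral leukemias, against 354 to 612 CPM in knock-in leukemias (0.20 ± 0.23 SE, adjusted p = 0.531 by edgeR), and Tox 35.3 to 102 CPM, against 9.60 to 149 CPM (1.10 ± 0.67 SE, adjusted p = 0.229). Without f/+ replicate 1, Tox was called too (2.17, adjusted p = 0.0244 by edgeR), and with the Cuffdiff 2.2.1 libraries alone, which leaves KO-ITD replicates 3 and 4 of the retroviral leukemias, 4 factors were called. All 22 T cell identity genes were called higher and all 12 granulocyte markers lower; the model, the sort and the tissue differ together here and cannot be told apart.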

How the data were processed

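Gene and transcript tables of estimated counts were used as deposited. The submitters' processing notes name TopHat2 2.0.10, Cufflinks (2.1.1 or an unnamed later version), Cuffdiff 2.1.1 or 2.2.1 and the mm9 build. No source used here tells which of these programs made the estimated counts that were deposited. Of nonzero values 98.12% to 98.54% per library were whole within 0.001; all were rounded. The 19 samples gave 17 libraries, because the technical runs of each WT-GFP library share 1 column, with totals of 4933890 to 25331908 counts. Strand is not stated. Replicates of a group differed by more than sampling noise (chi-square per degree of freedom at least 8.83).

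The tests were edgeR 4.0.16's quasi-likelihood test in R 4.3.3 with TMM factors, filterByExpr (15508 genes), prior count 2 and all 17 libraries in 1 fit, with Benjamini-Hochberg adjustment over all genes, and diffSpliceDGE for transcript usage (3198 genes). DESeq2 1.42.0, relative log (RLE) factors, no filter, subsets of libraries and a replicate block were alternatives. The code was tested on simulated data. Genes outside the 8 factors are named mostly from the largest called changes of each list. Exceptions are Notch1, Id2, Ptcra and Cd3e in KO-ITD cells, chosen after their values were seen. Dnmt3a is named as a check of the labels, and the genes most like a factor by their correlation. Other called genes of a list can have larger changes than those named. The result of 1 listed gene is left out. The 8 factors, the gene lists and the tests were chosen with earlier results of these data known. Levels between genes were compared per kilobase of exon only. Promoter windows are from RefSeq, GRCm38.p6; 4 of 4 Satb1 starts were matched. The deposited FPKM values were not used here.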

Additional observations from a re-analysis of the deposited data

Results flagged for a closer look

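In 21 groups of 4 libraries, each a factor's level or a transcript's share in KO-ITD cells that was not constant, 6 had a library that stood apart from the other 3 (Dixon's test at the 95% level, which chance passes in about 1 of 20 groups). The level of Bcl11b was high in KO-ITD replicate 2, at 355.2 CPM against 156 to 189.5 CPM in the other leukemias of the group. Gata3 was high in replicate 3, at 94.9 CPM against 40 to 48 CPM. Ikzf1 was high in the same library, at 874 CPM against 463 to 486 CPM. Replicate 3 also held 2.51% of its Satb1 counts in transcript NM_001163631, against at most 0.00304% in the others. In replicate 4 the Bcl11b transcript NM_001079883 was low, at 25.9% against 51.6% to 53.2%, and NM_021399, the only other Bcl11b transcript, was accordingly high at 74.1%. The 21 groups are not independent, since transcripts of a gene share its total.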

How the results depend on the processing

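Of 816 recomputed values of the factors, 728 kept their direction and their side of the threshold, 31 were no longer called, 11 became called and 46 changed sign; of 371 values of listed genes, 272 kept both and 99 were no longer called. The cause of these changes was not tested. The count of called factors for WT-ITD over WT-GFP (1) became 2 with only the groups compared, 3 with Cuffdiff 2.1.1 libraries, and 0 to 0 with each library left out. For KO-ITD over KO-GFP (5) it became 2 with the replicate block, 2 with only the groups compared and 1 to 4 with each library left out. In f/+ knock-in leukemias (0) it was 0 to 1 with each library left out, and for the f/f leukemia (0) it was 1 by DESeq2 and 2 with only the groups compared. The usage call for Satb1 (1) became 0 without the filter (adjusted p = 0.0510 by edgeR), 0 with thymus libraries and 0 to 1 with each library left out. Fitting fewer samples or genes is part of each of these settings. The counts of 0 for Dnmt3a deletion in either setting and for the interaction stayed 0 under every alternative run.

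By gene levels the replicate numbers were not taken to pair the samples: same-numbered libraries correlated between -0.224 and 0.369 in their deviations, with no comparison above 0.1 throughout. Transcript shares of the GFP libraries did split by number. Crossing the numbers of the GFP libraries, chosen after seeing the data, gave 0 calls. Signs that changed all belong to uncalled values (log2). For KO-ITD over WT-ITD, Ikzf1 was -0.050 without the filter and -0.26 with Cuffdiff 2.1.1 libraries, and Tox -0.23 with the latter set. For KO-GFP over WT-GFP, Satb1 was 0.0058 with RLE, 0.015 with the replicate block, 0.0060 by DESeq2 and 0.018 with only the groups compared. In the interaction, Ikzf1 was 0.032 with RLE, 0.014 with the replicate block, 0.031 by DESeq2 and 0.43 with thymus libraries, and Tox -0.14 with Cuffdiff 2.1.1 libraries. In f/+ leukemias, Ets1 was -0.019 with RLE, -0.068 with the replicate block and -0.018 by DESeq2. With each library left out, the ranges that crossed 0 were, for KO-ITD over KO-GFP, Lef1 -0.11 to 0.31, for KO-ITD over WT-ITD, Ikzf1 -0.27 to 0.20 and Tox -0.17 to 0.45, and for KO-GFP over WT-GFP, Lef1 -0.00048 to 0.087, Satb1 -0.24 to 0.18, Gata3 -0.17 to 0.037, Ikzf1 -0.11 to 0.15 and Tox -0.22 to 0.017. For the interaction they were Ikzf1 -0.29 to 0.17 and Tox -0.069 to 0.56. For f/+ leukemias they were Lef1 -1.04 to 1.23, Bcl11b -0.43 to 1.21, Gata3 -5.46 to 0.63, Ets1 -0.59 to 0.45, Ikzf1 -0.30 to 0.047 and Tox -0.49 to 2.48.

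Knock-in levels of Lef1 and Bcl11b rest on 5 to 47 counts a library, and 2 libraries a GFP group limit every comparison with them.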

Other observations

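Across the 11 retroviral libraries the levels of the factors correlated with each other to different degrees. This is a description over libraries that share genotype and virus. Leukemias and GFP thymocytes are pooled in it, so the difference between them enters every r, and r within either was not computed. Ikzf1 and Tox followed each other closely (Pearson r = 0.972), and Gata3 went with both (r = 0.912 with Ikzf1 and r = 0.901 with Tox). KO-ITD replicate 3 was the highest leukemia in Ikzf1, Tox and Gata3 (874, 102 and 94.9 CPM), and r without it was not computed. Among Tcf7, Ets1, Satb1 and Bcl11b, r lay between 0.758 for Tcf7 with Satb1 and 0.918 for Tcf7 with Ets1. The correlations overlapped, since Satb1 also had r = 0.805 with Ikzf1, r = 0.814 with Tox and r = 0.715 with Gata3. Lef1 stood apart from all 7 others, with r between -0.549 with Gata3 and 0.302 with Bcl11b.

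Among 9814 genes compared, those most like Satb1 over the 11 libraries were Dgkd (r = 0.992), Ssbp2 (r = 0.99) and Atl2 (r = 0.989), and those most like Bcl11b were Pdpk1 (r = 0.989), Ralgapb (r = 0.985) and Pogz (r = 0.983). The genes most like Ets1 were Gcc2 (r = 0.981), Cd8b1 (r = 0.98), a chain of the CD8 coreceptor, and the costimulatory receptor gene Cd28 (r = 0.976). Lzic, Xrcc4 and Cnga1 were most like Tcf7 (r = 0.969 to 0.973), and Jkamp, Spg20 and Slfn8 most like Lef1 (r = 0.913 to 0.926). Ikzf1 was most like Tox, and Tox most like Ikzf1, among all genes compared, and Gpr19 was most like Gata3 (r = 0.95).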
